A study of Homo sapiens with 6 samples.

Results

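The mitochondrial ribosomal protein genes were followed in K562, a human chronic myelogenous leukaemia cell line, as it acquired tolerance to doxorubicin, an anthracycline that poisons topoisomerase II. The genes were taken as the protein-coding genes named MRPL or MRPS plus a number in both deposited tables of read counts, which gave 74 of 30341 shared genes. Of these, 47 encode proteins of the large subunit, 26 encode proteins of the small subunit, and MRPS36 is now placed outside the ribosome. The rule reads names and gene types, not expression values, although the family was picked with earlier results of these data known.

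Mitochondria keep their own ribosomes, which translate the 13 mRNAs of the mitochondrial genome into core subunits of the respiratory chain and ATP synthase. The ribosomal RNAs are made inside the organelle, whereas every protein of the ribosome is encoded in the nucleus, made in the cytosol and imported. Some of these proteins descend from bacterial ribosomal proteins and others exist only in mitochondria. Doxorubicin is known to damage mitochondria as well as nuclear DNA.

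All samples were K562 cells of wild-type genotype grown in RPMI1640 medium with fetal calf serum. The untreated parental cells are 1 sample with 2 libraries, Parental_1 and Parental_2. A second sample is parental cells exposed to doxorubicin at 225 ng/ml over 48 h. The tolerant lines, ATC1 to ATC4, came from 480 wells of 10000 cells that received 100 ng/ml and then 225 ng/ml doxorubicin. After 4 weeks 21 wells held viable cells, and 4 of them could be kept growing in 225 ng/ml. Each line started from a well of many cells, so the lines are separate selections but are not stated to be single-cell clones, and they were compared with parental cells grown without drug.

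Library totals ran from 12537146 counts in Parental_2 to 21361758 in ATC1. Of 12 erythroid and megakaryocytic markers of K562, 11 reached 10 CPM (counts scaled to library size by edgeR's TMM factors) in at least 1 library of the lines' table, and GP9 did not. Markers of other cells were also read: 6 lymphoid genes summed to between 9.65 and 32.8 CPM over the 7 libraries. The sum of 6 epithelial and fibroblast genes was between 155.8 and 266.1, with KRT18 the largest of the 6 in every library. The B-cell marker MS4A1 and the T-cell marker CD2 were at or near 0. COL1A1 stood at 20.4, 8.51, 6.68 and 60.3 CPM in ATC1 to ATC4 and at 1.74 in Parental_1. COL1A2 stood at 7.82, 45.8, 7.64 and 3.56 against 0.476. EPCAM went the other way, at 38.8, 24.3, 45.2 and 31.3 against 57.7. The part of such cells in the results below was not tested.

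The first question was how the ribosomal protein genes of the tolerant lines compare with those of parental cells. Almost the whole set lay below Parental_1, each gene by a modest amount. Of the 73 genes with enough counts to test, 62 were lower than Parental_1 in all 4 lines, against 24.4% of all 18300 genes tested, and 0 were higher in all 4, against 27.3%. The median member of ATC1 stood at 65.3% of its Parental_1 level, that of ATC2 at 52.9%, that of ATC3 at 81.0% and that of ATC4 at 68.7%. A bulk library averages over its cells, so fewer cells with a transcript and less transcript per cell cannot be told apart.

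The fitted log2 fold change of the 4 lines against Parental_1 had a median of -0.54 over the members and 0.11 over all genes tested. It was below 0 for 71 of 73 members, against 44.3% of all genes. Well-expressed genes as a whole leaned the same way, so a second reference was needed. Among genes with a mean of at least 10 CPM the medians were -0.55 for 71 members and -0.13 for 9697 genes, and 62 of the 71 members were below Parental_1 in all 4 lines against 36.5% of those genes. Their fitted values were below 0 for 70 of 71, against 60.4%, and 16 of the 71 had a lower value at an unadjusted p under 0.05, against 6.76%. The members also lay closer together than other genes did: the standard deviation of the fold changes of these 71 was 0.27, against 0.85 among all genes of that expression level.

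**Figure D1:**
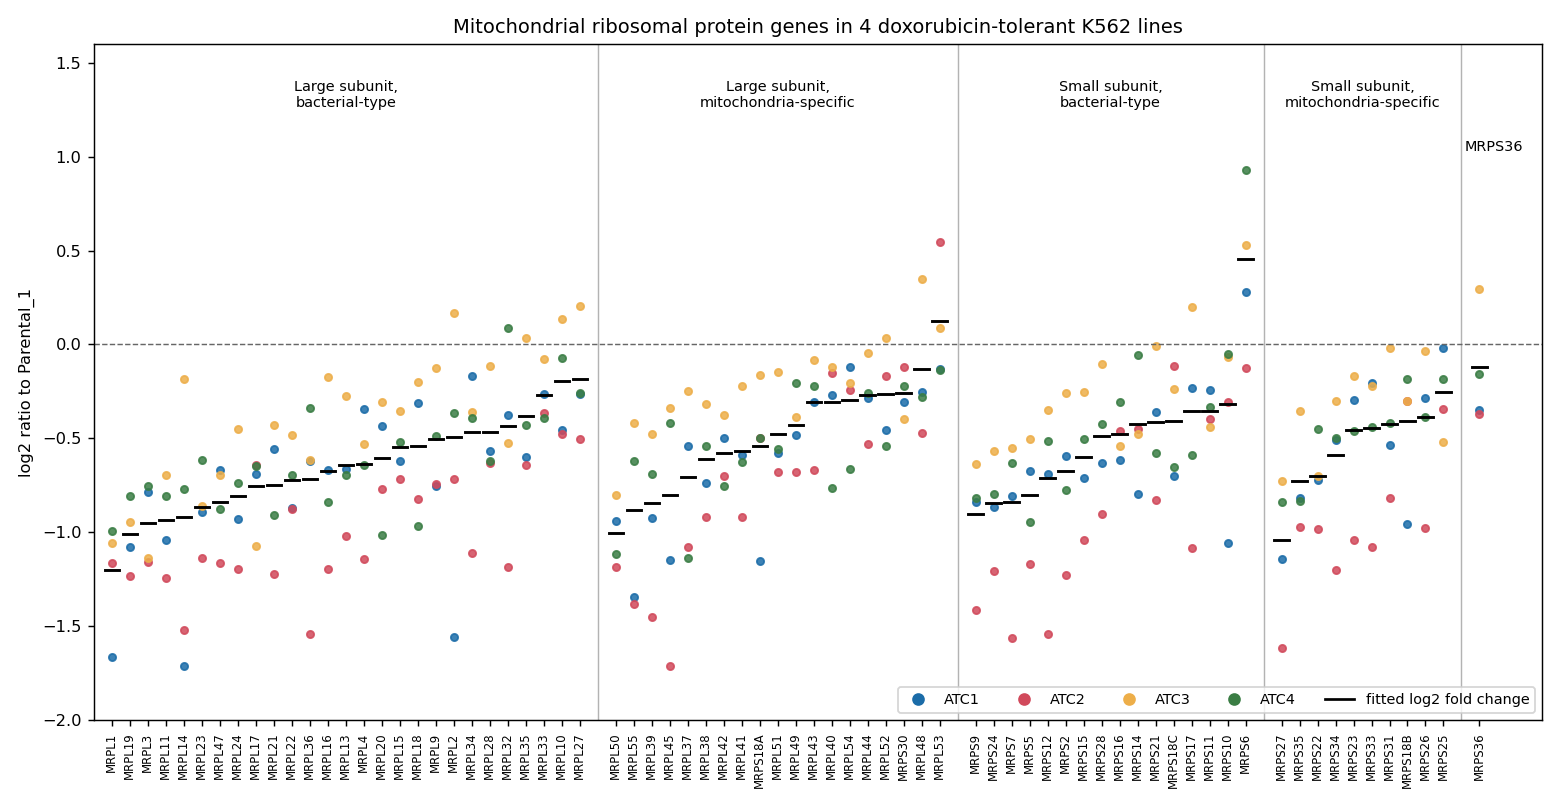
Log2 ratio to Parental_1 (y axis) of the 73 tested genes (x axis, ordered within subunit classes), with 1 coloured point per tolerant line and a black bar at the fitted fold change. Nearly all points lie below 0, MRPS6 is the gene with the highest bar, and the ATC2 points are often the lowest of the 4 and the ATC3 points the highest.

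No single gene of the set passed the test. edgeR (quasi-likelihood, Benjamini-Hochberg adjustment) called 0 of 73 members and 0 of 18300 genes (0.0%) at an adjusted p of 0.05, and the smallest adjusted p among members was 0.354. At an unadjusted p under 0.05 it listed 16 members as lower, against 4.28% of all genes, and 0 as higher, against 7.5%. DESeq2 on the same libraries called 1 member lower, MRPL50, beside 102 genes lower (0.557%) and 464 higher (2.54%) in all, and 0 members higher. With both parental libraries in the fit, edgeR called MRPL1 and MRPL19 lower, beside 97 genes lower (0.579%) and 248 higher (1.48%). That fit counts 2 libraries of 1 parental sample as separate replicates, so its p-values are not those of independent samples. limma-voom called 0 genes. In the fit against Parental_1 the spread comes from the 4 lines alone, with 3 residual degrees of freedom. The parental library is assumed there to vary as they do.

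The 2 libraries of the parental sample show how far members differ with no treatment between them. With all 7 libraries scaled together, the median member was 0.11 lower in Parental_2 than in Parental_1 on the log2 scale (median -0.11, against 0.00 for all genes), with 47 of 73 below Parental_1 against 50.1% of all genes. A 1.5-fold difference between the 2 libraries was reached by 5 members: MRPL55, MRPS12, MRPL28 and MRPS7 were that much lower in Parental_2, as were 14.6% of all genes, and MRPS31 was higher, as were 14.6%. Members below both parental libraries in all 4 lines numbered 44 of 73, against 16.2% of all genes, and members below Parental_2 in all 4 lines numbered 46, against 26.8%. Among genes of at least 10 CPM, 44 of 71 members were below both parental libraries in all 4 lines, against 25.2% of those genes. The choice of parental library therefore moves the count, and both counts stand above that of all genes.

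The lines differed from each other in how far the set lay below Parental_1. In ATC2 the median log2 ratio was -0.92, and 53 of 73 members were at least 1.5-fold below Parental_1, against 21.7% of all genes. In ATC1 the median was -0.61 with 40 such members (16.8% of all genes), and in ATC4 it was -0.54 with 34 (16.5%). In ATC3 the median was -0.30 with 12 such members, a share of 16.4% that is below the 20.5% of all genes. The lowest of the 4 lines was ATC2 for 50 of the 73 members and the highest was ATC3 for 49. The same count was not made over all genes. Among genes of at least 10 CPM, ATC2 also had the lowest median (-0.18) and ATC3 the highest (-0.11). Over all genes tested ATC2 had the highest median, 0.09. ATC2 was lowest and ATC3 highest also for cytosolic ribosomal proteins (medians -0.70 and 0.23) and K562 markers (-0.67 and 0.39). A level at least 1.5-fold above Parental_1 was seen for 1 member in 1 line, MRPS6 in ATC4, against 26.6% of all genes in that line.

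**Figure D2:**
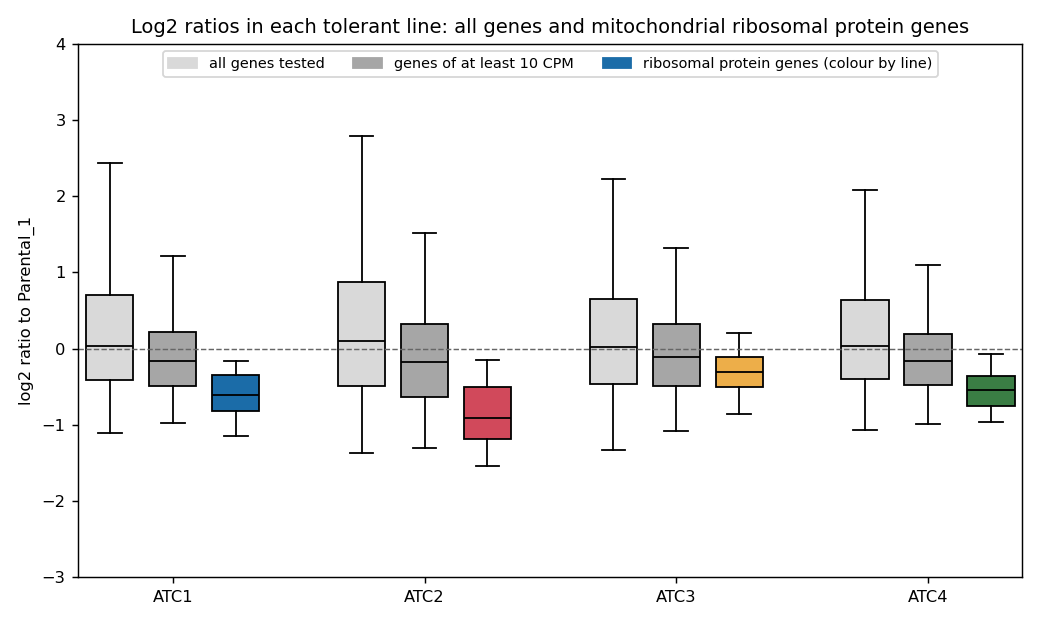
Log2 ratio to Parental_1 (y axis) in each tolerant line (x axis) for all 18300 genes tested, for genes of at least 10 CPM and for the 73 ribosomal protein genes. Boxes span the quartiles, the line inside is the median and whiskers reach the 5th and 95th percentiles; the coloured boxes of the members have the lowest medians and are the narrowest in each line.

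As a share of each whole library, the members took 0.526% of counts in Parental_1 and 0.522% in Parental_2. For ATC1 to ATC4 the shares were 0.396%, 0.350%, 0.428% and 0.419%, so all 4 lines lay below both parental libraries when each library was scaled by its total alone. Mitochondrially encoded transcripts, counted together with MIR4485, which lies in the mitochondrial 16S ribosomal RNA, took 5.07% of counts in Parental_1 and 6.83%, 5.07%, 9.63% and 6.05% in the tolerant lines. With those transcripts left out of the total, the members' share was 0.554% in Parental_1 and 0.425%, 0.369%, 0.473% and 0.446% in ATC1 to ATC4.

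The proteins of bacterial descent in the large subunit had the lowest median of the structural classes, a fitted log2 fold change of -0.64 over 27 genes, all of them below 0 and 22 of them below Parental_1 in every line. The 19 large-subunit proteins classed as mitochondria-specific had a median of -0.48. In the small subunit the 16 bacterial-type proteins had -0.48 and the 10 classed as mitochondria-specific -0.45. The mitochondria-specific classes include MRPS18A and MRPS18B, which are paralogues of bacterial S18 placed elsewhere in the ribosome. The difference between classes was not tested. All 10 mitochondria-specific proteins of the small subunit were below Parental_1 in all 4 lines.

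MRPL1 had the lowest fitted value of the large subunit and of the set. It is the counterpart of the bacterial L1 protein, which forms a mobile stalk beside the exit site for tRNA, and its gene (ENSG00000169288) lies at 77862520 to 77952790 of chromosome 4 in GRCh38. It stood at 12.6, 18.0, 19.4 and 20.2 CPM in ATC1 to ATC4, a mean of 17.5 ± 3.39 (SD, n = 4), against 40.3 in Parental_1. All 4 lines were lower than either parental library, with a fitted log2 fold change of -1.20 ± 0.35 (SE) and an adjusted p of 0.368 in edgeR. With both parental libraries in the fit, edgeR gave an adjusted p of 0.044, and over all alternatives its adjusted p ran from 0.044 to 0.578. The fit that gave 0.044 counts 2 libraries of 1 parental sample as separate replicates.

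MRPL19 and MRPL50 were close behind and varied little among the lines. MRPL19, a bacterial-type protein at the interface of the subunits (chromosome 2, 75646783 to 75690851), stood at 25.8, 23.1, 28.3 and 31.2 CPM in ATC1 to ATC4 against 54.6 in Parental_1. MRPL50, found only in mitochondria (chromosome 9, 101387633 to 101398614), stood at 28.5, 24.0, 31.3 and 25.2 against 54.8. Neither gene's 4 lines overlapped a parental library. Both had a fitted log2 fold change of -1.01 ± 0.28 (SE), with edgeR adjusted p-values of 0.36 for MRPL19 and 0.354 for MRPL50. Over the alternatives the adjusted p ran from 0.0417 to 0.591 for MRPL19 and from 0.047 to 0.589 for MRPL50. The 0.0417 came from edgeR with both parental libraries, which are 1 sample counted there as separate replicates.

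MRPL3 and MRPL11 touch the working centres of the ribosome. MRPL3 (chromosome 3, 131462212 to 131502983), whose bacterial counterpart reaches towards the peptidyl transferase centre, stood at 96.1, 74.4, 75.3 and 98.3 CPM in ATC1 to ATC4 against 166 in Parental_1. Its fitted log2 fold change was -0.95 ± 0.28 (SE), adjusted p 0.368 in edgeR. MRPL11 (chromosome 11, 66435075 to 66466738), at the base of the stalk that binds translational GTPases, stood at 39.2, 34.0, 49.8 and 46.0 against 80.6, with a fitted log2 fold change of -0.93 ± 0.29 (SE), adjusted p 0.373 in edgeR. Every line was below both parental libraries for each of these genes.

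In the small subunit the lowest value belonged to MRPS27 (chromosome 5, 72219409 to 72320646), a pentatricopeptide repeat protein found only in mitochondria. It stood at 76.6, 55.2, 102 and 94.8 CPM in ATC1 to ATC4, a mean of 82.2 ± 21.0 (SD, n = 4), against 170 in Parental_1. ATC2 was the lowest line and none reached the parental level. The fitted log2 fold change was -1.04 ± 0.35 (SE), adjusted p 0.382 in edgeR. The genes at least 1.5-fold below Parental_1 in all 4 lines were MRPL1, MRPL3, MRPL11, MRPL17, MRPL19, MRPL23, MRPL47, MRPL50, MRPS9 and MRPS27, 10 of 73 against 3.95% of all genes.

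MRPS6 stood apart at the other end. It is a bacterial-type protein of the small subunit (chromosome 21, 34073224 to 34143034) and stood at 41.4, 31.3, 49.3 and 64.9 CPM in ATC1 to ATC4 against 34.1 in Parental_1. ATC2 was below the parental value and the other 3 lines above it. The fitted log2 fold change was 0.45 ± 0.42 (SE), adjusted p 0.674 in edgeR. SLC5A3, a myo-inositol transporter gene, overlaps MRPS6 on the same strand; it held 4142, 1944, 2440 and 5440 reads in the lines against 1834 in Parental_1. The sources used here do not give how reads in the shared stretch were assigned.

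The next highest members were MRPS36, MRPL48, MRPL27, MRPL10 and MRPS25, all with fitted values below 0. MRPS36, since reassigned to the 2-oxoglutarate dehydrogenase complex, stood at 22.9, 22.6, 35.9 and 26.2 CPM in ATC1 to ATC4 against 29.2 in Parental_1, with ATC3 above the parental level. MRPL48, MRPL27 and MRPL10 were likewise above Parental_1 in ATC3 and below it in the other lines. MRPL27, whose bacterial counterpart extends a tail into the peptidyl transferase centre, had a fitted log2 fold change of -0.18 against Parental_1 and 0.39 when Parental_2 took its place. With library totals as the scaling MRPS36 came to 0.05 and MRPL48 to 0.03 on the same scale, so the direction of these genes is not settled. MRPS25, a mitochondria-specific protein of the small subunit, stood at 161, 129, 114 and 144 against 163.

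Other members whose parts in translation are known fell between these ends. MRPS12, the counterpart of the decoding-site protein S12, stood at 45.0, 24.8, 56.98 and 50.7 CPM in ATC1 to ATC4 against 72.5 in Parental_1, a fitted log2 fold change of -0.71. Against Parental_2 it came to 0.07, and for this gene Parental_2 itself lay below Parental_1 (log2 ratio -0.79). MRPL44, which carries a ribonuclease III-like domain, stood at 19.9, 16.8, 23.5 and 20.3 against 24.3 (fitted log2 fold change -0.27 ± 0.34, SE, adjusted p 0.76 in edgeR).

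The MRPS18 genes are paralogues of bacterial S18 that now sit in different places: MRPS18C in the S18 position of the small subunit, MRPS18B elsewhere in that subunit and MRPS18A in the large subunit. MRPS18A stood at 14.8, 23.3, 29.5 and 23.4 CPM in ATC1 to ATC4 against 33.0 in Parental_1. MRPS18B stood at 71.2, 112, 112 and 122 against 138, and MRPS18C at 18.7, 28.1, 25.8 and 19.3 against 30.4. Each was below both parental libraries in all 4 lines, with fitted log2 fold changes of -0.54, -0.41 and -0.41.

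MRPL53 and MRPL30 were barely read. MRPL53 stood at 1.34, 2.20, 1.58 and 1.34 CPM in ATC1 to ATC4 against 1.48 in Parental_1, and its fitted value of 0.12 turned to -0.05 without ATC2. MRPL30 held 2, 2, 2 and 3 reads in the lines and 3 in Parental_1, and was the 1 member not tested. A gene row named MRPL12 in the table of the 48 h library is named SLC25A10 in the table of the lines, so it is not a member. MRPL12 is the stalk protein that recruits translation factors and SLC25A10 is a dicarboxylate carrier. That row held 2883, 1317, 3259 and 2843 reads in the lines against 4771 in Parental_1.

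Levels can be compared between genes only per length. Per kilobase of annotated exon, with all libraries scaled together, the median member stood at 30.2 CPM per kilobase in Parental_1 and 26.1 in Parental_2, and at 16.3, 14.4, 23.0 and 19.0 in the tolerant lines in order. In Parental_1 the highest were MRPL14 at 120.6, MRPL37 at 93.7 and MRPS34 at 93.4, and the lowest tested was MRPL53 at 1.12. Most of the proteins occur in equal copies per ribosome, and the transcript levels differed among genes with a standard deviation of 1.18 on the log2 scale. That spread was 1.12, 1.11, 1.17 and 1.13 in ATC1 to ATC4, and the order of the genes in Parental_1 was largely shared by the lines (Spearman's rho over 73 genes 0.94, 0.92, 0.96 and 0.96 in ATC1 to ATC4, in part because every library shares the same exon lengths).

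The genes with the largest range among the lines were MRPL2, MRPL14, MRPL45 and MRPL32. MRPL2, a core protein of the peptidyl transferase region, stood at 38.2, 68.4, 126 and 87.3 CPM in ATC1 to ATC4 against 112 in Parental_1, a range of 1.72 on the log2 scale. MRPL14, an interface protein that the assembly factor MALSU1 binds, stood at 34.7, 39.7, 100.4 and 66.7 against 114. MRPL45, which sits near the exit of the peptide tunnel by the inner membrane, stood at 32.6, 22.1, 57.3 and 54.3 against 72.5. MRPL32 stood at 50.02, 28.4, 45.0 and 68.9 against 64.9. ATC1 or ATC2 was the lowest line for each, whereas the median range was 0.71 among members and 0.70 among genes of at least 10 CPM.

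MRPL2 and MRPL14 lie in the same region of the short arm of chromosome 6. The 6p21-p12 region, taken from 30 to 57 megabases, holds 5 members: MRPS18B (30617709 to 30626395), MRPS10 (42206801 to 42217865), MRPL2 (43054029 to 43059806), MRPS18A (43671303 to 43687791) and MRPL14 (44113454 to 44127457). In ATC1 their log2 ratios to Parental_1 were -0.96, -1.06, -1.56, -1.15 and -1.71 in that order. ATC1 was the lowest line for every one of them, although it was the lowest for 10 of all 73 members. Their medians were -1.15, -0.50, -0.17 and -0.37 in order of line.

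Other genes of that region were also lower in ATC1. The median of the 245 other genes tested there was -0.50 in ATC1 and 0.07, 0.00 and 0.02 in ATC2 to ATC4. Without the members of this region, the medians of the other 68 were -0.59, -0.95, -0.33 and -0.57 in ATC1 to ATC4, so the low median held without 6p. On 1q, MRPL9, MRPL24, MRPL55, MRPS14 and MRPS21 had medians of -0.79, -0.83, -0.42 and -0.58, against -0.23, 0.04, 0.06 and 0.01 for 609 other genes of that arm. The number of copies of these regions was not measured.

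**Figure D3:**
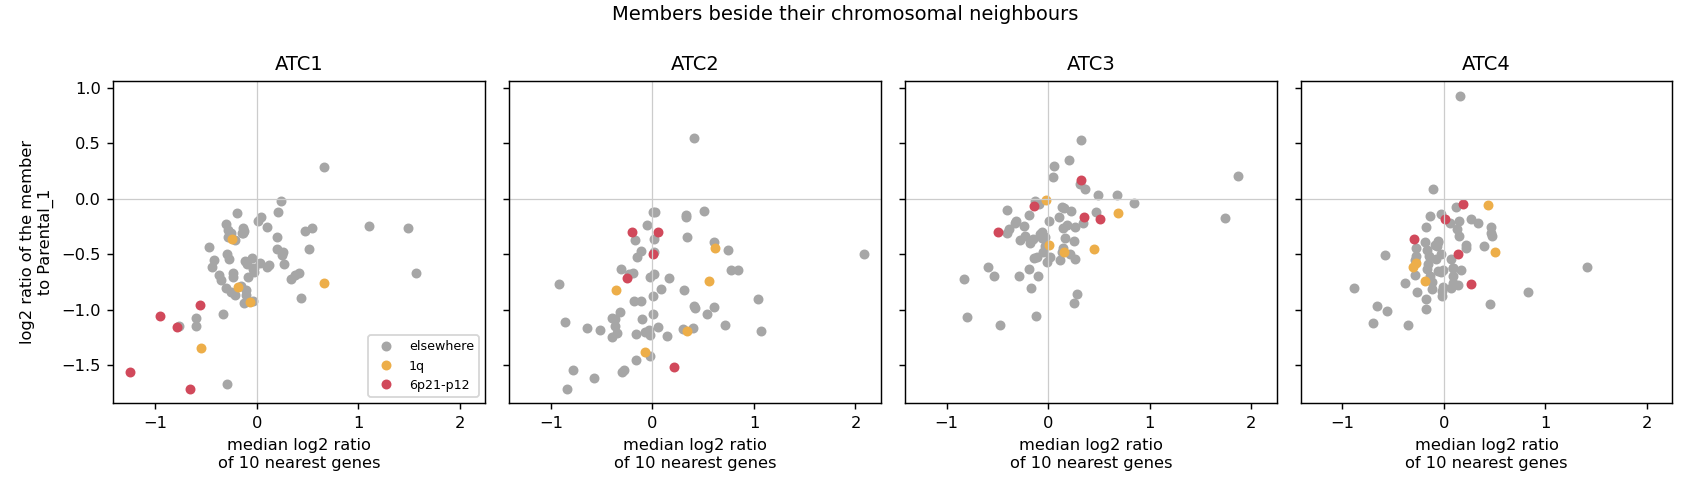
Log2 ratio to Parental_1 of each of 73 members (y axis) against the median log2 ratio of its 10 nearest expressed genes that are not members (x axis), with 1 panel per tolerant line. Red points are the 5 genes of 6p21-p12, which lie at the lower left in ATC1 and return to the cloud in ATC2 to ATC4, except MRPL14 in ATC2; orange points are the 5 genes of 1q.

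Across the genome a member and its neighbours on the chromosome were weakly alike. Pearson's r between a member's log2 ratio and the median of its 10 nearest expressed genes was 0.50, 0.33, 0.44 and 0.29 in ATC1 to ATC4 over 73 genes, and both sides of each pair share the library and Parental_1. The points in the plot of members and neighbours sit mostly below 0 on the member axis on either side of 0 on the neighbour axis.

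The rest of the pathway was read from lists of genes. Ribosomal proteins and attached factors under other symbols, 8 genes with DAP3, PTCD3 and the insertase OXA1L among them, had a median fitted log2 fold change of -0.52 (1 lower and 0 higher at an unadjusted p under 0.05), and 7 were below Parental_1 in all 4 lines. GADD45GIP1, a large-subunit protein, stood at 52.8, 32.8, 45.2 and 48.0 CPM in ATC1 to ATC4 against 81.8, a fitted value of -0.87. edgeR called 0 genes of any list described here at an adjusted p of 0.05, so the values that follow are descriptions, and the counts at an unadjusted p under 0.05 are given with each list. For reading them, 24.4% of all genes tested (36.5% at 10 CPM or more) were below Parental_1 in all 4 lines, 4.28% were lower at an unadjusted p under 0.05 and 7.5% higher.

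Assembly and rRNA modification factors (26 genes, 2 lower and 0 higher at an unadjusted p under 0.05) had a median of -0.52, with 22 of 26 below Parental_1 in all lines, against 24.4% of all genes. TFB1M, which dimethylates the small ribosomal RNA, stood at 11.1, 10.4, 11.7 and 10.5 CPM in ATC1 to ATC4 against 23.7, and its lines did not overlap either parental library. DHX30, an RNA helicase of the mitochondrial RNA granule, stood at 220.4, 161, 169 and 235 against 336. GTPBP10, a GTPase of large-subunit assembly, went the other way in some lines, with 43.3, 254, 40.7 and 152 against 50.7. It lies on 7q21, which holds no member of the set.

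Translation factors (15 genes, 4 lower and 0 higher at an unadjusted p under 0.05) had a median of -0.47. The elongation factor TUFM stood at 300.1, 133, 224 and 339 CPM in ATC1 to ATC4 against 572, a fitted log2 fold change of -1.20 ± 0.46 (SE), adjusted p 0.406 in edgeR. GFM1, the translocating elongation factor, stood at 87.8, 67.2, 73.5 and 111 against 156. MTRF1L, a release factor, was above Parental_1 in 3 lines and below it in ATC4.

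Transcription and maintenance of mitochondrial DNA (9 genes, 3 lower and 0 higher at an unadjusted p under 0.05) had a median of -0.52, with 8 below in all lines. TFB2M, which opens the mitochondrial promoters, stood at 46.9, 53.5, 50.2 and 58.9 CPM in ATC1 to ATC4 against 106, a fitted value of -1.02. TFAM, which packages mitochondrial DNA, stood at 129, 102, 115 and 167 against 243, a fitted value of -0.92. MTERF, on 7q21, stood at 11.5, 30.8, 17.8 and 83.2 against 26.6.

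The transcripts that these ribosomes translate were mixed in direction. The 13 mitochondrially encoded mRNAs (0 lower and 0 higher at an unadjusted p under 0.05) had a median fitted log2 fold change of 0.19. MT-ND5 and MT-ND6 were below Parental_1 in all lines, with fitted values of -0.58 and -0.59, and MT-CYB was above it in all lines, at 0.55. Among the lines the medians were 0.15, -0.44, 0.63 and 0.04 in ATC1 to ATC4, so that ATC2 was lowest and ATC3 highest, as for the ribosomal proteins. In ATC2 12 of the 13 were below Parental_1, and in ATC1, ATC3 and ATC4 3, 2 and 6 were. The difference from the ribosomal proteins was not tested. The small ribosomal RNA, MT-RNR1, stood at 1212, 970.4, 1800 and 1162 CPM against 1196, but ribosomal RNA is read poorly by libraries made with an mRNA kit.

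**Figure D4:**
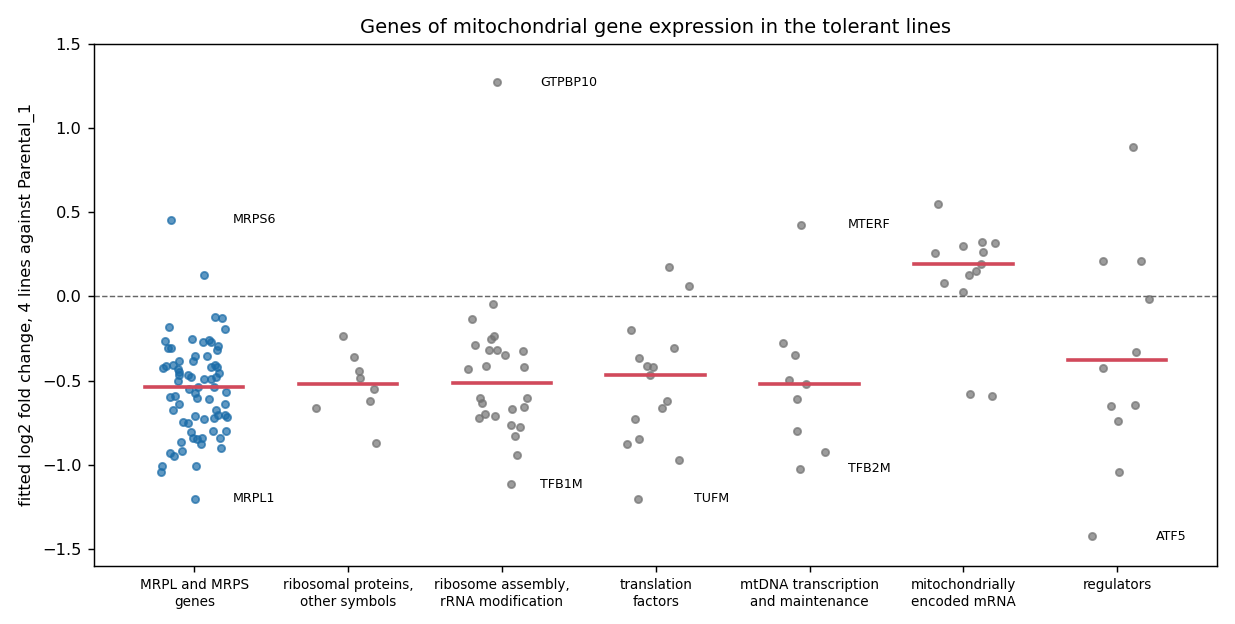
Fitted log2 fold change of the 4 tolerant lines against Parental_1 (y axis) for each tested gene of the lists (x axis); red bars are medians. The nuclear lists have medians between -0.54 and -0.38 and the mitochondrially encoded mRNAs 0.19; PPARGC1A, a regulator nearly unread in all libraries, lies above the axis range and counts in its list's median.

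Regulators of nuclear genes for mitochondria (12 genes, 3 lower and 0 higher at an unadjusted p under 0.05) had a median of -0.38. ATF5, a factor of the mitochondrial stress response, stood at 87.6, 72.9, 77.6 and 88.9 CPM in ATC1 to ATC4 against 219, a fitted log2 fold change of -1.42 ± 0.24 (SE), adjusted p 0.22 in edgeR. NRF1, nuclear respiratory factor 1, stood at 29.01, 21.1, 28.7 and 29.1 against 45.0, and YY1 at 131, 103, 124 and 140 against 195. MYC stood at 269.9, 220.1, 92.7 and 189 against 397, with ATC3 the lowest line. Others of the list lay above Parental_1: ESRRA, an orphan nuclear receptor, stood at 84.7, 84.4, 95.8 and 81.0 against 74.7, above it in all 4 lines. DDIT3, a stress-response factor, stood at 35.6, 115, 83.1 and 42.4 against 37.3, a fitted log2 fold change of 0.89, with ATC1 below the parental value. The coactivator PPARGC1A held 14, 5, 2 and 3 reads in the lines and 0 in Parental_1.

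For comparison, the ribosomal proteins of the cytosol had a median fitted log2 fold change of -0.25 over 83 tested genes (1 lower and 1 higher at an unadjusted p under 0.05), and 14 of the 83 were below Parental_1 in all 4 lines, a count under the 24.4% of all genes. Their medians were -0.38, -0.70, 0.23 and -0.37 in ATC1 to ATC4, above 0 in ATC3, where the mitochondrial set was at -0.30. The difference between the families was not tested.

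The second question was what parental cells show after 48 h of the drug. Each side is 1 library, so there is no test, and intervals cover counting error only. The median log2 ratio of the 73 members was -0.28 in the 48 h library against Parental_2, beside -0.03 over 13865 genes and -0.15 over genes of at least 10 CPM. The members ranged from -1.44 to 1.14, with a standard deviation of 0.52. The same figure for single tolerant lines was 0.37, 0.44, 0.33 and 0.32 in order, and 0.33 for Parental_2 over Parental_1. At least 1.5-fold lower were 16 members, against 21.8% of all genes, a share of 21.9% that is near the background. At least 1.5-fold higher were 4 members, against 23.2% of all genes. Below Parental_2 were 52 members, against 51.9% of all genes, and among genes of at least 10 CPM 51 of 71 members, against 60.1%.

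**Figure D5:**
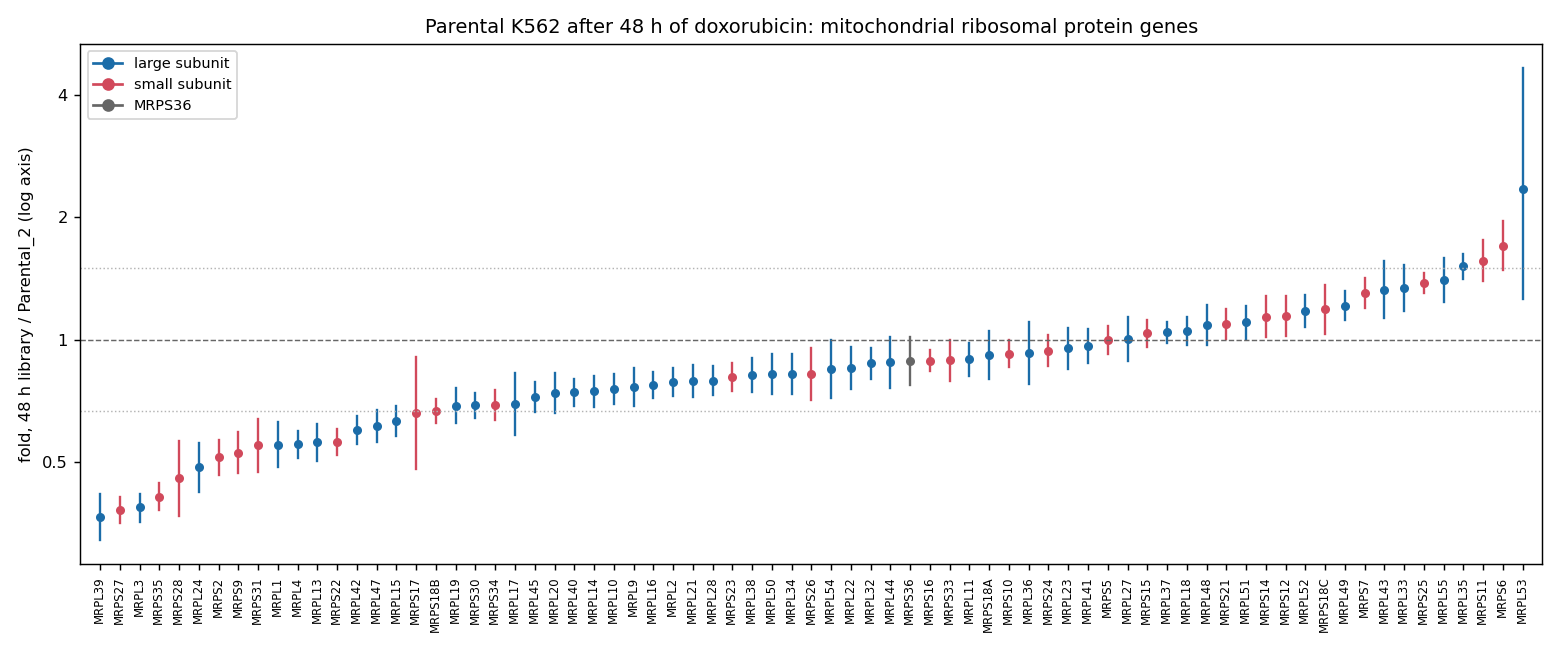
Fold of the 48 h library over Parental_2 (y axis, log scale) for 73 members in rising order (x axis), with 95% intervals from the counts of the 2 libraries; dotted lines mark 1.5-fold in either direction. The intervals of 42 genes lie wholly below 1 and those of 16 wholly above it. They cover counting error only, and the same count was not made over all genes.

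MRPL39 was the lowest member at 48 h, at 62.5 CPM in Parental_2 and 22.9 in the 48 h library, a fold of 0.366 (95% interval 0.321 to 0.416). It is a mitochondria-specific protein of the large subunit (chromosome 21, 25585656 to 25607517), and in ATC1 to ATC4 it stood at 26.0, 18.1, 35.6 and 30.6 against 49.5 in Parental_1. MRPS27 stood at 179 and 68.1, a fold of 0.381 (0.353 to 0.411). MRPL3 stood at 161 and 62.3, a fold of 0.387 (0.357 to 0.418). MRPS35, a mitochondria-specific protein of the small subunit, stood at 161 and 66.0, a fold of 0.411 (0.380 to 0.444), and at 67.3, 60.6, 93.1 and 66.7 in ATC1 to ATC4 against 119 in Parental_1. These genes were thus low both at 48 h and in the lines.

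Others parted. MRPL11, at 0.894-fold (0.816 to 0.979), and MRPL50, at 0.822-fold (0.733 to 0.922), stayed near Parental_2 at 48 h and were among the lowest in the lines. MRPL35, a small bacterial-type protein of the large subunit, stood at 99.9 in Parental_2 and 151 at 48 h, a fold of 1.51 (1.41 to 1.63), whereas in ATC1 to ATC4 it stood at 51.4, 49.8, 79.7 and 57.9 against 77.9 in Parental_1. MRPS11, next to the messenger RNA exit in bacterial ribosomes, was at 1.56-fold (1.39 to 1.76) at 48 h and at 32.8, 29.5, 28.5 and 30.7 in the lines against 38.8. MRPS6 was at 1.70-fold (1.48 to 1.96) at 48 h, a log2 ratio of 0.76 that became 0.29 with Parental_1 in place of Parental_2, and SLC5A3, which overlaps it, had 893 counts in Parental_2 and 2315 at 48 h. MRPL53 rests on 14 and 42 counts.

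By structural class, the median log2 ratio at 48 h was -0.37 for bacterial-type proteins of the large subunit and -0.12 for mitochondria-specific ones. It was 0.02 for bacterial-type proteins of the small subunit, of which 8 of 16 were below Parental_2, and -0.56 for mitochondria-specific ones, of which 9 of 10 were. The reference library moved with these classes: Parental_2 over Parental_1 had a median of -0.22 for the bacterial-type and 0.11 for the mitochondria-specific proteins of the small subunit, opposite in order to the 48 h medians. The difference between classes was not tested, and members of a class share no more than their label.

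Longer genes tended to be lower at 48 h, among members and in general. The 24 members with the longest spans in the genome had a median log2 ratio of -0.50, against -0.22 for the 24 shortest. All protein-coding genes of at least 10 CPM in the same span classes had -0.23 and 0.06. Pearson's r between log10 span and the 48 h log2 ratio was -0.28 over 73 members and -0.27 over 9172 genes, and all genes share the same 2 libraries. The same r was 0.48 for Parental_2 over Parental_1 among members, with medians of 0.11 for the longest and -0.28 for the shortest, so span also moved with the parental library in use. In the lines it was -0.15 for members and 0.04 for 9199 genes.

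Of the pathway lists, the regulators stood lowest at 48 h, with a median log2 ratio of -0.75 over 11 genes. ATF4 stood at 418 CPM in Parental_2 and 91.9 at 48 h, ATF5 at 435 and 94.1, and MYC at 316 and 133. In Parental_1, scaled with the other table, ATF4, ATF5 and MYC stood at 313, 219 and 397, so the size of these differences depends on the parental library. ATF4 was at 255, 387, 477 and 329 in ATC1 to ATC4 against 313 in Parental_1, with ATC1 below the parental value and the other lines above it. The mitochondrially encoded mRNAs had a median of 0.35 at 48 h, and 4 of 13 were at least 1.5-fold higher, against 23.2% of all genes and 13.3% of those of at least 10 CPM. These ratios rest on Parental_2: MT-CO1 stood at 10582 CPM at 48 h and 5607 in Parental_2, but at 10336 in Parental_1, whose table was scaled separately.

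Promoters were searched because most members lay on the same side of Parental_1. RefSeq promoter windows on GRCh38.p14, from 250 bases before to 50 after the start of transcription, matched 65 of the 74 members. Both strands were searched for the letters of motifs known for factors of mitochondrial genes, and each motif was counted by itself, overlaps with another motif allowed. Each member was counted by a single window. The background took every window and was not limited to genes expressed in these cells, so the shares are not of like sets. The ETS motif CCGGAAG, which GABPA and other ETS factors read, was in 28 member promoters (43.08%), against 12.84% of 22199 protein-coding promoters and 10.26% of all 35116. The YY1 motif AAGATGGCG was in 12 (18.46%, against 2.41% and 1.75%). The NRF1 motif GCGCANGCG was in 12 (18.46%, against 9.64% and 7.52%). The E-box CACGTG, which MYC and other factors read, was in 6 (9.23%, against 8.34% and 7.26%).

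Having a motif did not go with a lower value in the lines in any uniform way. Members with the ETS motif had a median fitted log2 fold change of -0.45 (27 tested) and those without it -0.70 (37). With and without the NRF1 motif the medians were -0.72 (11) and -0.50 (53), and with and without the YY1 motif -0.56 (12) and -0.55 (52). With the E-box it was -0.71 (6) and without it -0.54 (58). These differences were not tested. Of the 6 lowest members, MRPL3 has an ETS match, MRPL50 a YY1 match, and MRPL1, MRPL11, MRPL19 and MRPS27 have none of the 4 in this window.

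The promoters below show the layout of these matches in 1 of the lowest members, MRPL3, and in 3 of the genes of 6p that were lowest in ATC1. Each runs 5′ to 3′ on the gene's strand, from 130 bases before the start to 30 after it, with the motif matches in capitals. The windows are chr3:131502942-131503101, chr6:44127279-44127438, chr6:42217832-42217991 and chr6:43687762-43687921 of GRCh38.p14, all on the minus strand, in the order printed.
MRPL3: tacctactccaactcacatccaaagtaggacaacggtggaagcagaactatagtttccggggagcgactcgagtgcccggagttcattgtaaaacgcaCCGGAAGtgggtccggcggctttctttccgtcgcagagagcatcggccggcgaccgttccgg
MRPL14: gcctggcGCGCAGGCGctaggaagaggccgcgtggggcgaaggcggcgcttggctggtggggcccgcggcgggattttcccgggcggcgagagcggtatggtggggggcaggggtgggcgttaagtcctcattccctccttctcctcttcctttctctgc
MRPS10: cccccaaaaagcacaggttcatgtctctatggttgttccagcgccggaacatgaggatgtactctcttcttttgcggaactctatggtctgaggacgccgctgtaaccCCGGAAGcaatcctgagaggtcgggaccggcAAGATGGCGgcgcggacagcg
MRPS18A: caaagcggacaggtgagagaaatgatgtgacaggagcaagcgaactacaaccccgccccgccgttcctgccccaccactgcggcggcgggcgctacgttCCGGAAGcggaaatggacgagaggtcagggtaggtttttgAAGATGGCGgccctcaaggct
MRPL3 has its ETS match 32 bases before the start. MRPL14 has no ETS match and carries an NRF1 match 123 bases before the start. MRPS10 and MRPS18A share a layout, with the ETS match 22 and 31 bases before the start and the YY1 match 10 bases into the transcript. A match of letters is a description and shows no binding in these cells.

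Some counts may be shared with other genes. In GENCODE 29, 30 of the 74 members overlap another gene that held at least 10% as many counts as the member. For 8 of them the overlap is on the same strand: MRPL28, MRPL30, MRPL33, MRPL53, MRPS5, MRPS6, MRPS16 and MRPS17. MRPL30 held 2, 2, 2 and 3 reads in ATC1 to ATC4, where the overlapping AC079447.1 held 28, 23, 9 and 27. MRPL53 held 30, 44, 31 and 27, where the overlapping CCDC142 held 180, 275, 168 and 252. The libraries were made with a stranded kit, but the sources used here do not give whether the counting used strand. Pseudogenes of the set took few counts: 24 such entries held 156 counts in all over the libraries of the lines' table, and MRPL53P1 was the largest relative to its parent gene, at 9.375% of the counts of MRPL53.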

How the data were processed

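RNA-seq of 6 K562 samples in 7 libraries was used as deposited. Per the labels' protocols RNA was extracted with TRIzol and libraries were made with a stranded mRNA kit. The deposited values are whole read counts per gene to which the authors added 1. That 1 was subtracted, and pairs given as missing were read as 0. The deposited tables also hold the authors' log2 fold changes, which were not used. The submitters' processing notes name GRCh38 as the build, but only 1 member's position in the tables lies within 10 bases of GENCODE 29, so positions were taken from GENCODE 29, for 72 members by Ensembl ID and for 2 by name. Not given in the sources used here are the aligner and the counting program.

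The 4 lines were compared with Parental_1 by edgeR 4.0.16 in R 4.3.3 (quasi-likelihood, TMM scaling, filterByExpr, Benjamini-Hochberg adjustment over all 18300 genes, threshold 0.05). The common biological coefficient of variation was 0.429. The SE was worked back from the test, as the log2 fold change over the root of its F statistic. DESeq2 1.42.0 and limma 3.58.1 were alternatives. Per-library log2 ratios were taken with 2 as the prior count. No test was run between the 48 h library and Parental_2, whose ratios are given for genes with at least 20 counts in either library, with 95% intervals from the counts, which cover counting error only. CPM values of the 2 tables were scaled separately, except where the text says that all libraries were scaled together. The tests were also run on simulated counts, whose fold changes were larger than that of any member. That run does not cover differences of the size seen among the members. The p-values measure the spread among separately selected lines, and the parental libraries are 1 sample.

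Members named in the text include the 6 highest and 6 lowest in the lines with a mean of at least 10 CPM. The 4 highest and 4 lowest at 48 h, the 4 with the largest range and those of 1q and 6p21-p12 were also named. So were MRPL44, MRPL45, MRPS12, MRPS36 and the MRPS18 genes, and MRPL12, which is not a member. From each pathway list up to 2 genes each way by smallest p were eligible; DAP3, PTCD3, OXA1L, MTERF, MT-ND5, MT-ND6, MT-CYB, YY1, MYC, ATF4, ESRRA, DDIT3 and others were named for their role or pattern after their values were seen. The members, lists and motifs were chosen with earlier results of these data known.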

Additional observations from a re-analysis of the deposited data

How the results depend on the processing

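Of the results that answer a comparison, 49 alternative values kept their direction and stayed near the reported value and 8 did not. The count of all genes called by edgeR, 0 as reported, became 19 with no filter on low counts, 345 with both parental libraries and 566 in DESeq2, and ran from 0 to 84 when 1 line was left out, with 84 without ATC4. The count of members called, 0 as reported, became 2 with both parental libraries and 1 in DESeq2, and was 0 in every fit that left out 1 line. The fit with both parental libraries counts 2 libraries of 1 sample as separate replicates. The median log2 ratio of members at 48 h, -0.28 as reported, became -0.10 with library totals and -0.42 with Parental_1 in place of Parental_2. Library totals moved the median of all genes as well: at 48 h from -0.03 to 0.14, and in the lines from 0.11 to 0.29, where the members' median was -0.37. Relative to all genes the members' median in the lines was then -0.66, against -0.65 as reported.

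Members below Parental_1 in all lines numbered 62 as reported and between 44 and 70 over the alternatives, with 49 under library totals. The members' median in the lines ran from -0.66 to -0.47 when 1 line was left out and came to -0.39 with Parental_2. Among single members in the lines, the sign turned for MRPL27 (0.39 with Parental_2, 0.078 with both parental libraries), MRPL48 (0.033 with library totals), MRPS36 (0.046 with library totals), MRPS12 (0.068 with Parental_2) and MRPL53 (from -0.055 without ATC2 to 0.19 without ATC1). At 48 h the sign turned under at least 1 alternative for 10 of the 32 named members: MRPL11, MRPL27, MRPL32, MRPL44, MRPL55, MRPS10, MRPS12, MRPS18A, MRPS21 and MRPS36. The cause was not tested. The restriction to genes of at least 10 CPM was chosen after seeing the data.

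No paired analysis was possible because the parental cells and the 48 h cells are 1 sample each, so no replicate number is shared by 2 groups more than once. MRPL30 and MRPL53 cannot be judged, because they held few counts and each overlaps a gene with more counts on the same strand. The 48 h comparison has 1 library a side and no replicate error.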
